A study of Mus musculus with 15 samples.

Results

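The major urinary protein genes (Mup) were followed in liver and lung RNA of mice fed a control diet (CS) or a diet with 2% phytosterols (PS). The rows of the gene tables named Mup1, Mup2, Mup3, Mup7, Mup10, Mup11, Mup12, Mup17, Mup20 and Mup21 were chosen by name. These 10 genes stood among 48 rows of the Mup name, 21 genes and 27 pseudogenes, and among 54532 rows in all. The mice were male wild-type C57BL/6J animals labelled 28 weeks old, with no transgene or deletion in either group. Livers were sequenced from 4 CS and 5 PS mice, and lungs from 6 of these animals, 3 on each diet. Each library was 1 mouse. The liver libraries held 14410117 to 17625179 counts and the lung libraries 17934930 to 19396057 counts. Liver CS replicate 2 stood apart from the other CS livers over the whole table, with a chi-square per degree of freedom of 263 to 332 in its 3 pairs against 42.2 to 96.6 in the 3 pairs of the others. Of the 13195 liver genes tested, 38.3% had their lowest and 36.8% their highest CS value in that liver, and 17.9% to 24.8% in each of the others.

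Major urinary proteins are small secreted lipocalins, barrel-shaped proteins that hold a volatile ligand in a central pocket. Hepatocytes release them into the blood, and they pass through the kidney into the urine, where they carry pheromones and mark the individual that left the scent. Their genes form a tight cluster on chromosome 4, and their transcription in liver is known to depend on pulses of growth hormone acting through STAT5b, on androgens and on other hormones, so that male mice carry far more of the RNA than females. Mup20 encodes darcin, a male pheromone that draws females. Mup3, Mup20 and Mup21 belong to the older, more divergent members of the cluster, while Mup1, Mup2, Mup7, Mup10, Mup11, Mup12 and Mup17 are recent copies.

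How well the copies could be told apart was read from the reference first, since reads from near-identical copies can be given to the wrong copy or be dropped. In GRCm38 all 10 genes lie on the minus strand of chromosome 4, from Mup7 at chr4:60066469-60070475 to Mup21 at chr4:62147932-62150863. Over 540 aligned coding bases Mup1 and Mup12 differed at 2 positions, and Mup10 differed from Mup2 at 4. Mup20 was 91.3% identical to its nearest member, Mup11, with 47 differences. Mup3 and Mup21 were 95.4% identical to each other, and Mup3 was 83.1% to 87.1% identical to the 8 other members. A stretch of 77 bases in the second coding exon is shown because it separates the divergent members from the copies. Mup1, Mup2, Mup11 and Mup12 carry the same 77 bases there, and the line for Mup12 stands for these 4. The stretches lie at chr4:60740648-60740724 for Mup12, chr4:60581521-60581597 for Mup10, chr4:60069733-60069809 for Mup7, chr4:61595193-61595269 for Mup17, chr4:62053480-62053556 for Mup20, chr4:62150195-62150271 for Mup21 and chr4:62086800-62086876 for Mup3. Capitals mark the bases that differ from Mup12.
Mup12: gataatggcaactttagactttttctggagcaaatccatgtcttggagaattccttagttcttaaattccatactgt
Mup10: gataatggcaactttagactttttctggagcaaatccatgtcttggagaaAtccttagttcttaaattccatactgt
Mup7: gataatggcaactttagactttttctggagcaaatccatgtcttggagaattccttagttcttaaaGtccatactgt
Mup17: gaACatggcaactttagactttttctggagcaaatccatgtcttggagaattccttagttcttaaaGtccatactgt
Mup20: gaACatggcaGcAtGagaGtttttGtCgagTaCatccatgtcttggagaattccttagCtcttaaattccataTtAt
Mup21: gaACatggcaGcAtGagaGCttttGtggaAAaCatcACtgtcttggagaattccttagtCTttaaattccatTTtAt
Mup3: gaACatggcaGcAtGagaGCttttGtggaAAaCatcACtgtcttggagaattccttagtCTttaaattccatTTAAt
In this stretch Mup10 and Mup7 each differed from Mup12 at 1 base and Mup17 at 3, while Mup20 differed at 13, Mup21 at 18 and Mup3 at 19.

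The consequence for counting was measured with windows of 150 bases, the length of 1 read. In the longest coding transcript of Mup3 and of Mup21, 0 windows occurred exactly in a transcript of another gene. Mup20 shared 31.1% of its windows, each with 1 other gene. Mup17 shared 40.4%. The other 6 members shared 72.9% (Mup7) to 90.7% (Mup2), some windows with 14 other genes. How the authors' counting treated reads that fit several copies is not given in the sources used here, so the values of Mup1, Mup2, Mup7, Mup10, Mup11, Mup12 and Mup17 are uncertain as values of single genes, and the sum over the 10 members was read beside them.

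The region at the start annotated by RefSeq was compared for the 7 members that have a promoter entry there (GRCm38.p6): Mup2, Mup3, Mup7, Mup10, Mup11, Mup17 and Mup21. The letters TATATAA, a form of the TATA box, occurred on either strand within the 300-base window of 6 of the 7, against 3.24% of all 32851 promoters. Mup7 held none, and the 2 matches in Mup10, 1 on each strand, overlap. The letters TTCNNNGAA, the core to which STAT5 dimers bind, occurred in 0 of the 7 windows and in 8.3% of all promoters. The 60 bases before the RefSeq start are given for 2 copies and the 2 most divergent members, with TATATAA in capitals. They lie on the minus strand at chr4:60582156-60582215 (Mup10), chr4:61595833-61595892 (Mup17), chr4:62087318-62087377 (Mup3) and chr4:62150842-62150901 (Mup21).
Mup10: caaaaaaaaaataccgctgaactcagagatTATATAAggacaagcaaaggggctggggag
Mup17: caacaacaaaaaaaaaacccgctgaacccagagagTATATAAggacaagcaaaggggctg
Mup3: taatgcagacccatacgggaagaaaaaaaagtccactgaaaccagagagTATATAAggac
Mup21: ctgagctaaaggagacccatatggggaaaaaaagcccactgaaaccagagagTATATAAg
From the RefSeq start the first base of the letters lay at position -30 in Mup10, -25 in Mup17, -11 in Mup3 and -8 in Mup21. The gene coordinates of the tables begin within the printed stretches instead. They begin at 60582199 (Mup10), 61595871 (Mup17), 62087342 (Mup3) and 62150863 (Mup21). By these coordinates the letters lie inside the genes, so their position depends on the annotation.

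To show how much of the liver RNA these genes made up, their counts were summed in each library. In the CS livers the 10 genes took 3.15%, 0.959%, 2.25% and 4.68% of the counts (replicates 1 to 4), and in the PS livers 2.89%, 0.943%, 1.3%, 2.43% and 2.96% (replicates 1 to 5). CS replicate 2 and PS replicate 2 were the lowest and nearly equal, PS replicate 3 came next, and CS replicate 4 was the highest. Nearly the whole range of the PS livers lay within that of the CS livers. The mean was 2.76% ± 1.56 (SD, n = 4) in CS and 2.1% ± 0.927 (SD, n = 5) in PS, and the difference of -0.65 percentage points was smaller than the within-diet SD of 1.24. Without CS replicate 4 the CS mean was 2.12% and the difference -0.01 points. Without CS replicate 2 the CS mean was 3.36% and the difference -1.25 points, larger than the within-diet SD of 1.04 among the livers left. These SDs describe single mice and are not the error of a difference between means, and the shares were not tested.

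**Figure D1:**
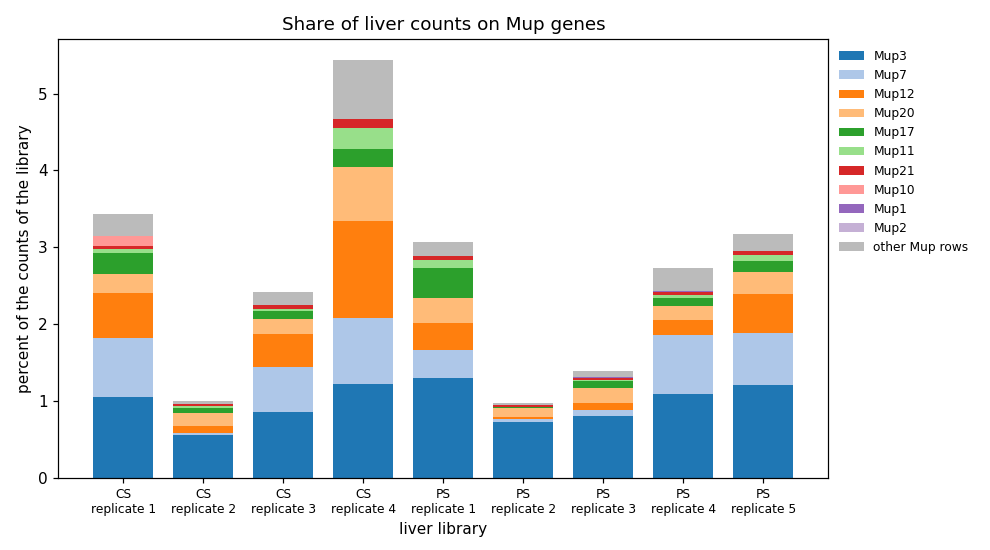
Stacked bars give the percent of each liver library's counts on the 10 Mup genes and on the 38 other rows of the Mup name (grey), with 4 CS and 5 PS livers along the horizontal axis. The 10 genes range from 0.943% in PS replicate 2 to 4.68% in CS replicate 4, and the heights of the diets overlap.

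The 10 rows were also replaced by 1 row, their sum, in a fit across the whole liver table (edgeR's quasi-likelihood test, Benjamini-Hochberg adjustment). In CPM, counts scaled to one common library size with TMM factors, the sum was 28913, 9930, 21396 and 49231 in the CS livers and 32138, 9444, 13184, 22587 and 29977 in the PS livers. The log2 fold change of PS over CS was -0.35 (SE 0.46, 95% interval -1.35 to 0.65, adjusted p = 0.936). The interval runs from 0.392 to 1.57 times the CS level, so neither a fall nor a rise within these bounds is excluded by the interval. CS replicate 4 decided the direction, since the log2 fold change without it was 0.10 (adjusted p = 0.982), while without CS replicate 2 it was -0.63 (adjusted p = 0.469). The spread between mice of one diet was wide, with an SD of 0.86 on the log2 scale, above that of 95.1% of the 10998 genes whose log2 CPM averaged 1 or more. In bulk RNA fewer hepatocytes and less RNA per hepatocyte cannot be told apart. The summed CPM of the 8 hepatocyte markers, all detected in the liver, spanned 81180 to 112366 in CS and 99905 to 123969 in PS. It stood at 112366 in CS replicate 2 and 123969 in PS replicate 2, the livers with the least Mup RNA, and at 96422 in CS replicate 4, the liver with the most. In PS replicate 1, with a Mup sum of 32138 CPM, it stood at 123674, near that of PS replicate 2.

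Mup3 was the most abundant member. Its level per transcript length was 8673 ± 2906 FPKM in CS (SD, n = 4) and 9884 ± 2803 in PS (SD, n = 5), and its mean over all livers ranked 8 among all rows of the table. Mup7 (mean 4545 FPKM over 9 livers), Mup12 (4380) and Mup20 (2983) followed, then Mup17 (1753), Mup21 (713), Mup11 (465), Mup10 (97.2), Mup1 (23.4) and Mup2 (2.65). Mup3 exceeded Mup7 in 9 of 9 livers. Mup7 exceeded Mup12 in 5 of 9 and Mup12 exceeded Mup20 in 6 of 9, so these neighbours were not separated by the spread between mice. Mup10 stood above Mup1 by its mean, yet in 1 of 9 livers only. Mup12 took the first place from Mup3 in CS replicate 4. Mup3 made up 26.2% of the 10-gene counts in that liver and 76.2% in PS replicate 2. In PS replicate 2, Mup1, Mup11, Mup12, Mup17, Mup20 and Mup21 had their lowest values.

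The 10 members all passed the filter on low counts. In PS 2 had a higher and 8 a lower fitted value, where 6079 of the 13195 genes tested were higher and 7116 lower. The median log2 fold change was -0.47 beside -0.03 over all genes. The members were read in the same mice and most share sequence, so their directions are not independent. Among them 1, Mup10, had an unadjusted p of at most 0.05, a level that 7.55% of the genes tested reached (edgeR). At an adjusted p under 0.05 the count of members was 0, where 0.00758% of the genes tested were called. Limma-trend called 0 of the 10 at either level, and DESeq2 0 of the 9 for which it gave a p. No member had CS and PS livers that did not overlap, a state found in 3.63% of the genes tested.

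The Mup10 value came from 1 mouse. CS replicate 1 held 21217 counts (1171 CPM), while the other CS livers held 12, 33 and 68 counts and the PS livers held 76, 47, 43, 30 and 22 counts. Every liver other than CS replicate 1 therefore lay at or below 5.87 CPM, and PS replicate 1 was the highest of the PS livers. The fitted log2 fold change was -6.71 (SE 1.88, edgeR adjusted p = 0.331), and without CS replicate 1 it was 0.25 (adjusted p = 0.996). This is the gene without a p in DESeq2. Mup10 made 4.05% of the 10-gene counts in CS replicate 1 and at most 0.0283% in any other liver. It shared 84.4% of its windows with other genes, so which copy these reads came from cannot be told apart here.

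Mup12 had the largest fitted change after Mup10. It stood at 5401, 1032, 4040 and 13378 CPM in CS and at 3874, 308, 995, 1767 and 5022 CPM in PS. The lowest CS liver lay within the range of the PS livers, and PS replicate 5 lay above CS replicates 2 and 3. The log2 fold change was -1.32 (SE 0.77, interval -3.00 to 0.37, edgeR adjusted p = 0.748), and without CS replicate 4 it was -0.55. Mup7 gave 7075, 224, 5669 and 8985 CPM in CS and 4185, 451, 789, 7174 and 6872 CPM in PS. Its lowest liver was CS replicate 2, which was 40.8 times below the highest in FPKM, and its log2 fold change was -0.50 (SE 0.91, edgeR adjusted p = 0.963), with -0.90 without CS replicate 2 and -0.15 without CS replicate 4. Mup11 ranged from 30.2 CPM in PS replicate 2 to 2943 CPM in CS replicate 4, with a log2 fold change of -1.01 (SE 0.92, edgeR adjusted p = 0.876) that became 0.49 without that CS liver. Mup17 was highest in PS replicate 1 (4327 CPM) and lowest in PS replicate 2 (155 CPM), so the PS livers spanned the range of the CS livers, and its log2 fold change was -0.09 (SE 0.73, edgeR adjusted p = 0.993). Mup1 ranged from 4.43 to 70.2 CPM and Mup2 from 1.22 to 5.56 CPM, with log2 fold changes of -0.26 (SE 0.67, edgeR adjusted p = 0.977) and 0.11 (SE 0.42, adjusted p = 0.986).

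**Figure D2:**
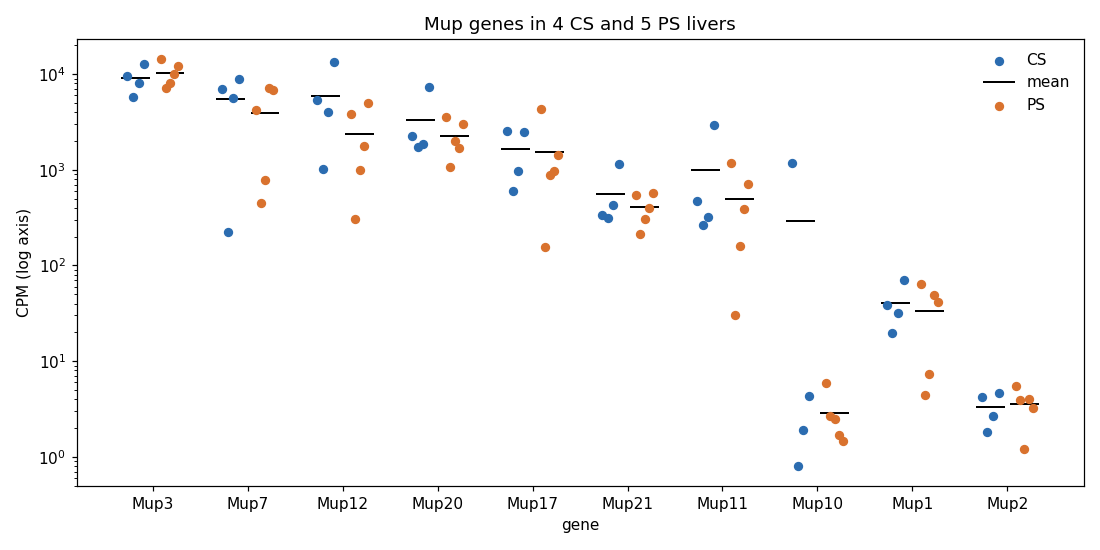
Each point is the CPM of 1 Mup gene in 1 liver on a log axis, with CS in blue, PS in orange and the mean of each diet as a black line, and genes along the horizontal axis. The diets overlap for all 10 genes, and 1 CS liver carries the high mean of Mup10.

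The 3 members that shared the fewest windows, Mup3, Mup21 and Mup20, varied less than the copies apart from Mup2. Mup3 was measured at 9628, 5743, 8066 and 12886 CPM in CS and at 14349, 7197, 8061, 10149 and 12297 CPM in PS. The ranges of the diets coincided, apart from the lowest CS and the highest PS liver, and the log2 fold change was 0.20 (SE 0.28, interval -0.42 to 0.81, edgeR adjusted p = 0.948), with 0.03 without CS replicate 2 and 0.41 without CS replicate 4. Mup20, the darcin gene, stood at 2239, 1728, 1859 and 7325 CPM in CS and at 3591, 1077, 1983, 1673 and 3026 CPM in PS. CS replicate 4 was far above the other livers, and the log2 fold change of -0.53 (SE 0.47, edgeR adjusted p = 0.872) became 0.23 (adjusted p = 0.93) without it. Mup21 gave 336, 310, 425 and 1154 CPM in CS and 549, 215, 309, 401 and 572 CPM in PS, again with CS replicate 4 apart, and a log2 fold change of -0.44 (SE 0.42, edgeR adjusted p = 0.884) that turned to 0.20 without it.

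The SD between mice of one diet, on log2(CPM + 0.5), was 0.45 for Mup3, 0.72 for Mup21 and 0.83 for Mup20. It was 0.62 for Mup2, which held 21 to 76 counts in a liver, and 1.38 to 2.99 for the copies Mup1, Mup17, Mup12, Mup11, Mup7 and Mup10. The median over the 10998 genes compared was 0.37. For each of these 6 copies at least 99.5% of the genes compared had a smaller SD, and for Mup3 65%. The 6 copies each shared at least 40.4% of their windows with other genes, as did Mup2, and the part of read assignment in the spread was not tested.

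**Figure D3:**
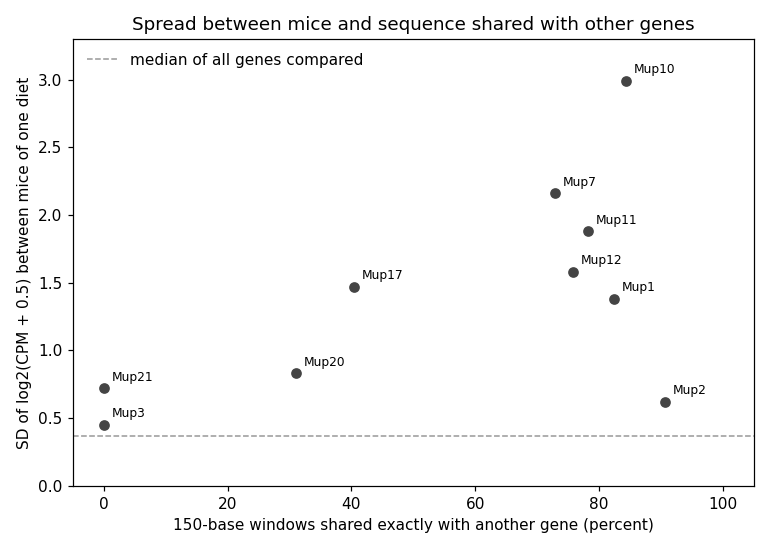
Each point is 1 Mup gene, with the percent of its 150-base windows found exactly in another gene's transcripts on the horizontal axis and the SD between livers of one diet on the vertical axis. Mup3, Mup21 and Mup20 lie at the lower left with SDs of 0.45, 0.72 and 0.83, Mup10 lies highest at 2.99, and the dashed line is the median of all genes compared, 0.37.

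The other rows of the Mup name, summed, were lowest and highest in the same livers as the sum of the members, while single rows were highest in various livers. They added 0.0315% of the counts in PS replicate 2 and 0.768% in CS replicate 4, and with them the family took 0.974% to 5.44% of a library. Of these rows 22 had at least 10 counts in some liver and 14 entered the test, where 6 were higher, 8 lower and 0 reached an unadjusted p of 0.05 by edgeR, DESeq2 or limma-trend (lowest edgeR adjusted p = 0.774). Mup15 held 92142 counts in CS replicate 4, 38126 in the next liver and a median of 5375. Mup13 held 12468 counts in PS replicate 5 with 3064 in the next liver. Mup19 (5526) and Mup18 (3372) were highest in PS replicate 1, and Mup5 held 156 counts there and at most 8 elsewhere. The pseudogene Mup-ps19 reached 12350 counts in CS replicate 4, Mup14 8454 in the same liver, and Mup16 7228 in PS replicate 5. The remaining 14 rows, Mup-ps13, Mup-ps16, Mup9, Mup8, Mup-ps12, Mup-ps6, Mup-ps20, Mup4, Mup-ps7, Mup6, Mup-ps21, Mup-ps14, Mup-ps15 and Mup-ps8, held at most 331 counts in any liver.

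Over the 9 livers the gene whose log2 CPM had the highest Pearson r with the Mup sum was Gstp1, a glutathione transferase that male mouse livers express more (r = 0.98, Spearman 0.90), among 10977 genes compared. Slc22a7, an organic anion transporter (r = 0.94), Ces3a, a carboxylesterase of the hepatocyte (0.94, Spearman 0.95), Gm35696 (0.93) and Cyp4v3, a fatty acid hydroxylase (0.90), came next. Among the genes that ran most against it were Morc4 (r = -0.92), Mmd2 and Vldlr, a lipoprotein receptor (both -0.90), and Cd7 (-0.88). Without PS replicate 2 and CS replicate 2, the farthest from the median of the sum, r was 0.94 for Gstp1, 0.95 for Slc22a7, 0.87 for Ces3a and -0.71 for Vldlr, so the order among the first 3 depended on the measure and the livers. All points share the library and its scaling, and these values are a description.

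Genes known to differ between male and female livers, which share growth hormone and STAT5b control with the Mup cluster, were set beside the sum. Serpina1e, a male-biased protease inhibitor, stood at 4766, 191, 4832 and 3431 CPM in CS and at 1446, 182, 175, 2719 and 4474 CPM in PS. CS replicate 2, PS replicate 2 and PS replicate 3 were its lowest livers, and they were the lowest for the Mup sum as well. Selenbp2, a male-biased selenium-binding protein, gave 229, 10.2, 190 and 224 CPM in CS and 32.1, 3.3, 11.3, 88.6 and 118 CPM in PS, with the same livers lowest. Cyp2b9, a cytochrome P450 typical of female livers, gave 0.221, 20.9, 0.406 and 0.128 CPM in CS and 3.4, 137, 38.4, 0.618 and 1.39 CPM in PS. Here CS replicate 2, PS replicate 2 and PS replicate 3 were the highest. Cyp2a4, another female-biased P450, gave 0.11, 5.53, 0 and 0.64 CPM in CS and 1.16, 5.8, 3.15, 0.899 and 0.663 CPM in PS, with the same livers highest. Of the 5 female-biased genes tested, 4 had their highest CS value in CS replicate 2, beside 36.8% of all genes tested, and their highest PS values in PS replicates 2 and 3. The exception was Acot3, an acyl-CoA thioesterase, which was lowest of the CS livers in CS replicate 2 (24.1 CPM against 27.6 to 92.9 CPM) and stood at 69.6 CPM in PS replicate 2 and 32.8 CPM in PS replicate 3. In CS replicate 2, 13 of the 14 male-biased genes had their lowest CS value, all but Cyp2u1, beside 38.3% of all genes tested. Serpina1e and Cyp2a4 were named after their values were seen. Lcn2, a lipocalin of the acute-phase response, stood at 18.7, 94.3, 10.9 and 10.2 CPM in CS and at 221, 80.7, 62.2, 22 and 23.1 CPM in PS, highest in PS replicate 1. The diets overlapped for Serpina1e, Selenbp2, Cyp2b9, Cyp2a4, Acot3 and Lcn2.

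**Figure D4:**
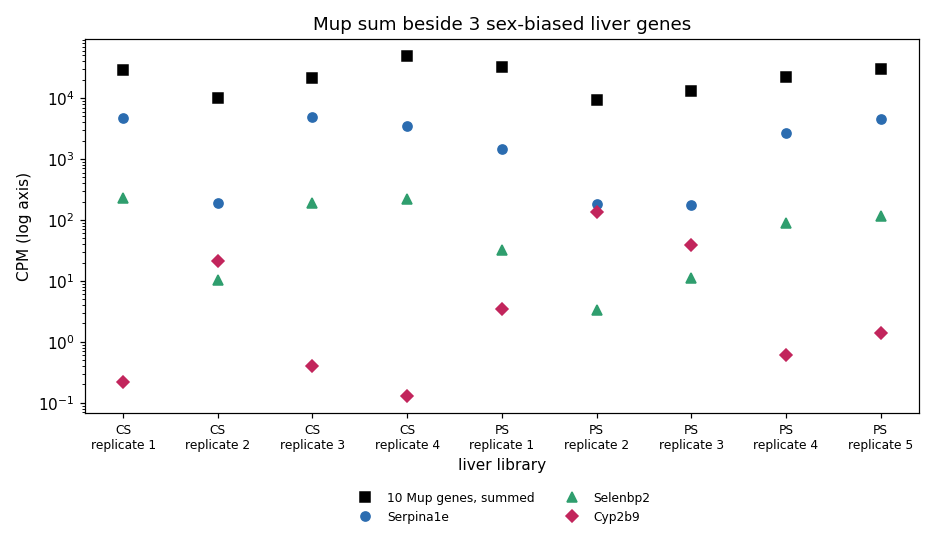
Points give the CPM of the summed Mup genes, of the male-biased genes Serpina1e and Selenbp2 and of the female-biased gene Cyp2b9 in each of 9 livers on a log axis, with libraries along the horizontal axis. In CS replicate 2, PS replicate 2 and PS replicate 3 the Mup sum, Serpina1e and Selenbp2 are low and Cyp2b9 is between 20.9 and 137 CPM.

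By diet, all 14 male-biased genes were tested. By the fitted value 2 were higher and 12 lower, where 6079 of all 13195 genes were higher and 7116 lower. Their median log2 fold change was -0.30 beside -0.03 over all genes. Of the 14 genes 2 fell at an unadjusted p of at most 0.05, against 3.58% of all genes in that direction. At an adjusted p under 0.05 the count was 0 (edgeR). Elovl3, a fatty acid elongase, stood at 850, 190, 651 and 883 CPM in CS and at 178, 180, 106, 361 and 287 CPM in PS. CS replicate 2 lay among the PS livers, and the log2 fold change was -1.53 (SE 0.44, edgeR adjusted p = 0.344, DESeq2 adjusted p = 0.0448). Without CS replicate 2 Elovl3 passed the adjusted level in edgeR as well, at -1.84 (adjusted p = 0.0315). Cyp7b1, an oxysterol hydroxylase, gave 335, 39.1, 364 and 349 CPM in CS and 77.5, 43.7, 50.7, 155 and 167 CPM in PS, with a log2 fold change of -1.46 (SE 0.58, edgeR adjusted p = 0.581). CS replicate 2 was again the low CS liver, and the unadjusted p exceeded 0.05 when any 1 of 6 other livers was left out, with no filter (adjusted p = 0.678) and under limma-trend (adjusted p = 0.716 and 0.717 at the larger and smaller FPKM pseudocount). Gstp1, also of this list, was at -0.57 (SE 0.44, adjusted p = 0.844) and Selenbp2 at -1.69 (SE 0.94, adjusted p = 0.733). Of the 16 female-biased genes 5 were tested, with 4 higher, 1 lower and a median of 0.60, and 0 were called at an unadjusted p of 0.05 by edgeR, DESeq2 or limma-trend. Cyp2b9 had the largest value, 2.76 (SE 1.68, adjusted p = 0.763), which was 1.01 without PS replicate 2 and 7.11 without CS replicate 2, and Cyp17a1 and Acot3 stood at 0.28 and -0.51.

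All 13 genes of growth hormone and STAT5 signaling were tested, with 5 higher, 8 lower and a median of -0.19. Of these 2 fell at an unadjusted p of at most 0.05, where 3.58% of all genes did, and 0 passed the adjusted level by edgeR. Socs2, a target of STAT5b and a brake on growth hormone signaling, stood at 15.3, 13.1, 6.96 and 11.1 CPM in CS and at 4.48, 6.37, 5.6, 4.94 and 3.51 CPM in PS. Every CS liver was above every PS liver. The log2 fold change was -1.22 (SE 0.26, edgeR adjusted p = 0.175), and DESeq2 gave an adjusted p of 0.00449. Stat5b itself was at 56.2, 48.4, 63.5 and 52.4 CPM in CS and at 38.7, 40.2, 41.6, 46.3 and 34.9 CPM in PS, without overlap, and its log2 fold change was -0.45 (SE 0.15, edgeR adjusted p = 0.463). Ghr, the growth hormone receptor, and Stat5a were at 0.36 (SE 0.21, adjusted p = 0.752) and -0.34 (SE 0.22, adjusted p = 0.787). The diets thus overlapped for the Mup sum and did not for Socs2 and Stat5b, and whether these responses differ was not tested.

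Of the 13 nuclear hormone receptors and liver transcription factors 11 were higher and 2 lower, with a median of 0.20. Over all 13195 genes 6079 were higher and 7116 lower. Of the 13 genes 1 rose at an unadjusted p of at most 0.05, where 3.96% of all genes did. This was Ppargc1a, a coactivator of fasting metabolism, with 3.86 to 9.67 CPM in CS and 10.3 to 15.5 CPM in PS and a log2 fold change of 0.79 (SE 0.27, edgeR adjusted p = 0.463). Cebpb, an acute-phase transcription factor, was at 0.70 (SE 0.35, adjusted p = 0.707), and Foxa2 and Thrb at 0.26 and 0.24. Of the 11 other lipocalins 8 were tested, 2 higher and 6 lower, and 0 had an unadjusted p of at most 0.05 by edgeR, DESeq2 or limma-trend (median -0.07). Apom, which carries sphingosine phosphate on lipoproteins, was at -0.84 (SE 0.48, adjusted p = 0.747), Lcn2 at 1.29 (SE 0.82, adjusted p = 0.772), and the acute-phase proteins Orm2 and Orm3 at -0.67 and -0.49. Without CS replicate 2 Orm2 and Orm3 turned to 0.35 and 0.19 and Lcn2 stood at 2.62, while without PS replicate 1 Lcn2 stood at 0.49.

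Other abundant secreted proteins of the liver were read for comparison, and of 19 tested 8 were higher and 11 lower, with a median of -0.04. Of these 2 rose at an unadjusted p of at most 0.05, beside 3.96% of all genes, and 0 at the adjusted level by edgeR. Gc, the vitamin D binding protein, stood at 4722, 4533, 4957 and 5115 CPM in CS and at 6849, 6124, 6296, 5751 and 6730 CPM in PS, with no overlap and a log2 fold change of 0.39 (SE 0.16, edgeR adjusted p = 0.609, DESeq2 adjusted p = 0.0459). Apoh, a phospholipid-binding plasma protein, was at 0.53 (SE 0.22, edgeR adjusted p = 0.619). Alb, serum albumin, was at 0.40 (SE 0.18, adjusted p = 0.66) and Ttr, which carries thyroid hormone, at 0.36 (SE 0.28, adjusted p = 0.837). The unadjusted call of Gc was lost when any 1 of 6 livers was left out and with no filter (edgeR adjusted p = 0.678). It was also lost under limma-trend (adjusted p = 0.652 and 0.641 at the larger and smaller FPKM pseudocount). That of Apoh was lost when any 1 of 5 livers was left out. Both were lost in a fit with the replicate number as a block (edgeR unadjusted p = 0.223 for Gc and 0.126 for Apoh). Over these lists 7 of 72 genes tested were called, 9.72% beside 7.55% of all genes. Without CS replicate 2 the calls were 18 of 72, where calls over all genes rose as well, to 14.1%. Without CS replicate 1 they were 4 of 74 beside 5.2% of all genes, and without PS replicate 3 they were 4 of 71 beside 5.42%. Of markers of other cells, the 6 Kupffer cell markers summed to 169 to 231 CPM in CS and 51.5 to 186 CPM in PS, ranges that overlap. The 4 adipocyte markers summed to 22.4 to 72.5 CPM in CS and 3.4 to 21 CPM in PS, ranges that do not. Among single genes tested, 3.63% did not overlap. The sums for sinusoidal endothelium, stellate cells, cholangiocytes, pancreatic acinar cells, both alveolar types and salivary or lacrimal gland overlapped. All Kupffer cell and adipocyte markers were detected, and the part of these cells in these results was not tested.

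**Figure D5:**
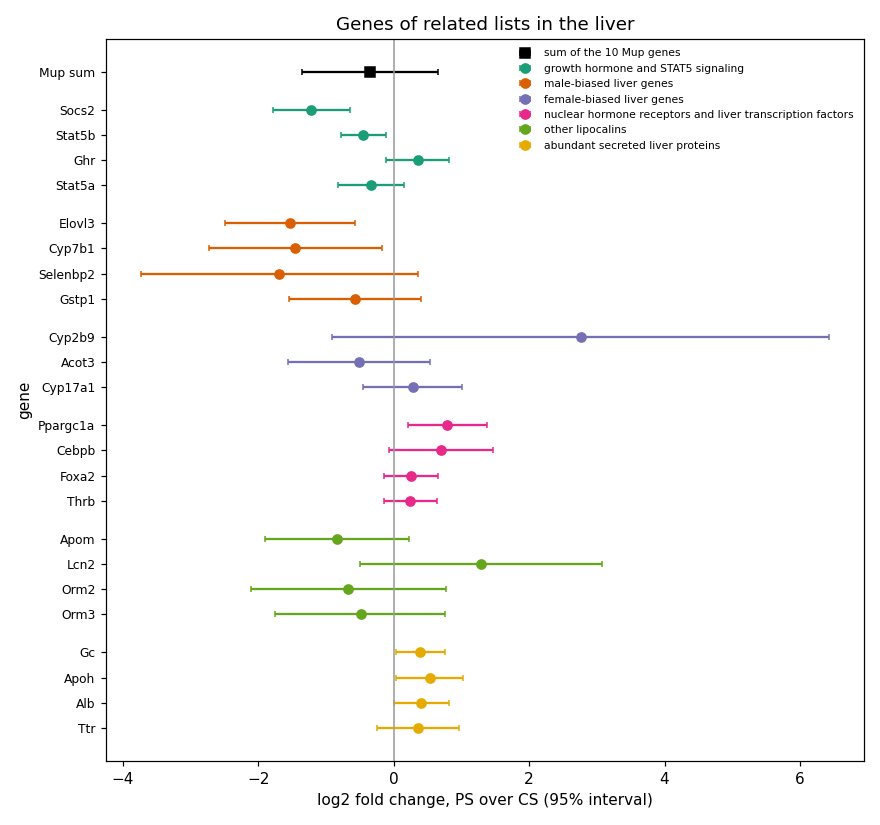
Points give the log2 fold change of PS over CS in the liver and bars its 95% interval (edgeR), for the summed Mup genes and for up to 4 genes with the smallest p of each of 6 related lists, named along the vertical axis. Socs2, Stat5b, Elovl3 and Cyp7b1 lie below 0 and Ppargc1a, Gc and Apoh above it with intervals that leave out 0, while the Mup sum at -0.35 spans it.

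In the lung the 10 genes were near 0, and what was counted came mainly from 1 mouse. Lung CS replicate 1 held 784 counts over 9 of the 10 members, or 0.00404% of its library, and the other CS lungs held 0 and 0 counts. The PS lungs held 4, 55 and 15 counts. Lung CS replicates 1, 2 and 3 came from the mice of the same liver numbers, and Lung PS replicates 1, 2 and 3 from those of liver PS replicates 1, 3 and 5. Counts of 0 allow up to 3 counts a library, and these limits cover counting error only. Mup3 gave 328, 0 and 0 counts in CS and 4, 25 and 12 counts in PS, and Mup20 gave 194, 0 and 0 in CS and 0, 15 and 1 in PS. Mup12 gave 130 counts, Mup7 57, Mup11 30, Mup21 25, Mup17 17, Mup1 2 and Mup2 1 in Lung CS replicate 1. Mup10 was at 0 in every lung.

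Mup3 was the single member to pass the lung filter. Its log2 fold change was -2.84 (SE 2.17, interval -8.32 to 2.64, edgeR adjusted p = 0.428), so it was not called by edgeR, nor was it by limma-trend (adjusted p = 0.736), and DESeq2 gave no p for it. At an unadjusted p of 0.05 edgeR called 30.1% of the 16717 lung genes tested, and at an adjusted p under 0.05 it called 9.22%. Without Lung CS replicate 1 the sign turned and Mup3 passed the unadjusted level (adjusted p = 0.116), since the CS lungs that remain are at 0, and the fitted value of 6.81 is no measure of size there. Albumin RNA moved with the Mup counts, at 1177, 6 and 12 counts in the CS lungs and 21, 186 and 87 counts in the PS lungs. Apoa1 gave 390, 1 and 5 counts in CS and 12, 36 and 13 in PS. The 8 hepatocyte markers, all detected, summed to 6.95 to 135 CPM in the CS lungs and 14.2 to 23.6 CPM in the PS lungs, with 39.3 CPM in Lung CS replicate 2, where the Mup counts were 0. The part of liver RNA in the lung counts was not tested. In Lung CS replicate 1 there were 66.6 Mup counts per 100 Alb counts, and in the liver of that mouse 57.9. In the other mice the ratios were less alike and differed in both directions, at 19 in the lung and 41.1 in the liver for Lung PS replicate 1, 29.6 and 16.9 for Lung PS replicate 2, and 17.2 and 38.2 for Lung PS replicate 3. Lung CS replicates 2 and 3 were at 0, beside 14.6 and 34.4 in their livers. In the mouse of Lung CS replicate 1, Mup10 had 21217 counts in the liver and 0 in the lung. Mup20 had 40578 and 194 there, and Mup17 46149 and 17. The reads of Mup10 cannot be assigned to a copy, and the source of the lung counts was not tested.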

How the data were processed

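Poly-A RNA of 9 livers and 6 lungs was sequenced as paired reads of 150 bases. Per the labels and the study's methods, the authors aligned reads to mm10 with HISAT2 2.0.5, and the deposited counts per gene came from featureCounts 1.5.0-p3. The authors' deposited FPKM values were these counts per transcript length and library factor. The treatment of reads matching several copies and of strand is not given in the sources used here. The study's methods give a purchase age and feeding periods that sum to more than the labelled age.

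Groups came from the labels. Counts were fitted in each tissue with edgeR 4.0.16 (filterByExpr, TMM, robust quasi-likelihood, diet only), with p adjusted by Benjamini-Hochberg over all genes tested. DESeq2 1.42.0 and limma 3.58.1 on log2(FPKM + 1) and log2(FPKM + 0.1) were alternatives, as were DESeq2's size factors in edgeR, a minimum of 10 counts in each library, the unfiltered table, a replicate block and the omission of each mouse. In simulated counts (liver, 13195 genes) 35 of 100 genes changed by 1 on the log2 scale and 87 of 100 changed by 2 were recovered, with 7 unchanged genes called. The simulation used the spread typical of each expression level. The Mup sum varied more between mice than 95.1% of the genes compared, so these recoveries do not apply to it. Coding sequences and transcripts were those of GENCODE on GRCm38, aligned with MAFFT 7.526, and promoters those of RefSeq. No libraries repeated each other. The members and lists were chosen with earlier results of these data known. Named were all members, per related list the 4 genes of smallest p plus those needed to account for small counts, the 5 genes most like and 5 most unlike the Mup sum, and the other Mup rows with at least 10 counts in a liver. Some genes that this rule picks are not reported here.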

Additional observations from a re-analysis of the deposited data

Results flagged for a closer look

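In 38 groups of 4 CS or 5 PS livers, 6 samples stood apart from the rest of their group by more than Dixon's critical value, and chance alone gives about 1 in 20 groups. Mup10 stood at 1171 CPM in CS replicate 1 with the next CS liver at 4.35 CPM, and at 5.87 CPM in PS replicate 1 with the next PS liver at 2.67 CPM. CS replicate 4 was the high sample for Mup11 (2943 CPM, next 474), Mup20 (7325 CPM, next 2239) and Mup21 (1154 CPM, next 425). Cyp7b1 stood at 39.1 CPM in CS replicate 2, where the next CS liver had 335 CPM.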

How the results depend on the processing

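The Mup sum kept a negative log2 fold change and stayed above the unadjusted level of 0.05 under all 9 other settings, and leaving out single mice gave -0.63 to 0.10, the latter without CS replicate 4. The share differed by -1.25 to -0.01 points over the same omissions. The count of members called in the liver went from 1 to 0 under the DESeq2 Wald test, where Mup10 had no p, and under limma-trend at either FPKM pseudocount, and was 0 to 1 over the omissions. In the lung it was 0 to 1, with 1 when Lung CS replicate 1 was left out. Genes called over the related lists were 4 to 18.

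Leaving out single livers reversed Mup1 (-0.65 to 0.15), Mup2 (-0.10 to 0.33), Mup10 (-7.14 to 0.25), Mup11 (-1.63 to 0.49), Mup17 (-0.94 to 0.21), Mup20 (-0.76 to 0.23) and Mup21 (-0.64 to 0.20). For Mup3 in the lung the range was -3.59 to 6.81. Without a change of sign, single omissions in the liver gave Gstp1 -0.88 to -0.22, Cyp17a1 0.06 to 0.55 and Acot3 -0.88 to -0.09. Ghr ranged from 0.21 to 0.51 and Stat5a from -0.47 to -0.17. Cebpb ranged from 0.41 to 1.03, Foxa2 from 0.14 to 0.4 and Thrb from 0.14 to 0.33.

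The replicate numbers did not pair the mice, since correlations of same-numbered deviations were -0.358 to -0.0295 in liver and -0.00648 to 0.0988 in lung, and 0 of 4 CS livers correlated best with their own number. Under the replicate block 1 member was called, Mup12 (-1.80, adjusted p = 1) in place of Mup10 (-1.10), the Mup sum stood at -0.44 (adjusted p = 1), and Mup3 in the lung was at 0.28. The block also ended the unadjusted calls of Stat5b and Ppargc1a in the liver (edgeR unadjusted p = 0.121 and 0.0524). All genes called in the liver at an unadjusted p of 0.05 were 523 higher and 473 lower, against 260 and 227 with the block and 1039 and 852 without CS replicate 2. At an adjusted p under 0.05, where edgeR called 1 gene higher and 0 lower, DESeq2 called 110 and 53, the fit with no filter 20 and 6, the fit without CS replicate 2 43 and 22, and the block 0 and 0.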
